A study of Homo sapiens with 18 samples.

Results

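The genes described here are 7 members of the interleukin 1 system, chosen by name and found by gene ID in the RNA-Seq data: the agonists IL1A and IL1B, the receptor antagonist IL1RN, the related cytokines IL18 and IL36G, and the receptor chains IL1R1 and IL1RAP. They are 7 of 23604 gene entries listed in at least 1 library. RNA was measured in MCF10A-ErSrc, an established, non-tumorigenic human breast epithelial line that carries v-Src fused to an estrogen receptor domain, so that tamoxifen switches the kinase on and transforms the cells. The NT cells were left without tamoxifen and the TAM cells were given 2 µM of it, so tamoxifen itself and transformation cannot be told apart. Both were incubated for 4 h with DMSO (the groups NT and TAM) or with 0.125 µM triptolide (the groups NT + TPL and TAM + TPL), a diterpenoid that binds XPB, the translocase of the transcription factor TFIIH. Each of the 4 groups had 2 biological replicates of RNA-Seq. RNA polymerase II (RNAPII) was mapped by ChIP-Seq in the same 4 conditions (8 ChIP samples and 2 inputs), from which 1 list of peaks over transcription start sites (TSSs) per condition was used.

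IL-1α and IL-1β, the products of IL1A and IL1B, signal through IL1R1, which recruits the accessory chain IL1RAP and then the adaptor MYD88, IRAK kinases and TRAF6. This leads to the activation of NF-κB, through the IκB kinases, and of AP-1. IL1RN encodes a protein that occupies IL1R1 without recruiting IL1RAP, and IL-18 and IL-36γ act through related receptors, the latter also with IL1RAP. Epithelial cells keep IL-1α and IL-18 as ready proteins that are released on damage, and IL-1 signalling is known to induce IL1A and IL1B themselves together with chemokines, colony-stimulating factors and feedback inhibitors.

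Levels are given as FPKM, which divide the reads of a gene by transcript length and library total and so can be compared between genes. Changes were tested on the estimated counts with edgeR's quasi-likelihood test over all 16948 genes that passed its filter on low counts, and a gene is said to have risen or fallen when its adjusted p was at most 0.001 and its log2 fold change at least 1.2 in size. Genes that missed this call with an adjusted p of at most 0.05 are described as passing the looser threshold. Of the 7 members, 6 passed the filter. IL36G did not, with 0 and 3 counts in NT cells without and 0 and 0 with TPL, and 0 and 1 in TAM cells without and 4 and 1 with TPL, so that no change of it was detectable at this depth. All measures are relative to the RNA of each library, which held between 7461309 and 8349448 counts, and in bulk samples fewer cells that express a gene and less of its RNA per cell cannot be told apart.

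The libraries carried the markers of the labelled epithelial line. All 8 epithelial markers were listed. Their summed levels ranged between 12905 and 14531 FPKM in NT cells without and 9477 and 11481 with TPL, and 3456 and 3609 in TAM cells without and 1856 and 1985 with TPL. The 6 leukocyte markers summed to between 29.3 and 44.3 FPKM in NT cells without and 61.8 and 70.4 with TPL, and 25.7 and 29.8 in TAM cells without and 57.7 and 60.7 with TPL. The defining leukocyte gene PTPRC stayed at or under 2.14 FPKM, CSF1R at or under 2.57 and CD3E at or under 0.17. Most of the sum with DMSO was LYZ (31.6 and 18.8 FPKM in NT, 21.6 and 17.9 in TAM cells) and CD14 (10.9 and 9.18, 7.57 and 6.8). With TPL, CD14 passed the looser threshold upward in NT cells (0.77, adjusted p = 0.0272 by edgeR) but not in TAM cells (-0.13). LYZ passed it upward in TAM cells (1.01, adjusted p = 0.0367 by edgeR) but not in NT cells (0.68). ITGAM, called in both comparisons with TPL, went from at most 2 counts to 227 and 189 in NT and to 353 and 333 in TAM cells. The 4 fibroblast markers summed to between 8.27 and 8.49 FPKM in NT cells without and 7.88 and 12.9 with TPL, and 4.21 and 6.54 in TAM cells without and 6.43 and 7.21 with TPL, most of it DCN and COL1A1, the latter of which passed the looser threshold downward in TAM against NT cells with DMSO (adjusted p = 0.0137 by edgeR). Of the 2 endothelial markers CDH5 was at 0 in all 8 libraries and PECAM1 was listed in each, at 1.04 and 0.82 FPKM in NT cells without and 1.69 and 1.38 with TPL, and 0.71 and 0.46 in TAM cells without and 1.12 and 0.61 with TPL. The summed levels of the epithelial and leukocyte groups moved with TPL or TAM, but single epithelial markers differed. Most of the epithelial sum was KRT5 and KRT17, which fell in TAM against NT cells with DMSO (log2 fold changes of -2.18 and -2.16). There 5 of the 8 markers lay below 0, as did 8921 of all 16948 genes tested, and others above it, such as EPCAM (0.69). With TPL the basal factor TP63 fell in both cell states (-5.31 and -5.04), while KRT8 passed the looser threshold upward in both (0.57 and 0.47). In all, 6 of the 8 lay below 0 with TPL in NT and 5 in TAM cells. Of all 16948 genes tested, 7909 and 8111 did. The part of these markers in the results below was not tested.

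In untreated NT cells the agonists and IL18 were abundant and the receptor chains were not. By group mean and in FPKM, the order in NT was IL1B (148 ± 8.55, SD, n = 2), IL18 (103 ± 10.9), IL1A (70.8 ± 4.94), IL1RN (25.4 ± 0.898), IL1RAP (13.0 ± 2.89), IL1R1 (3.85 ± 0.615) and IL36G (0.170 ± 0.240), and the replicates of neighbours in this order did not overlap. In TAM cells IL1A (75.3 ± 5.97) and IL1B (73.4 ± 10.9) came first and overlapped, followed by IL1RAP (38.5 ± 3.01), IL18 (24.9 ± 0.665), IL1R1 (11.9 ± 0.672), IL1RN (4.63 ± 0.361) and IL36G (0.0550 ± 0.0780). The receptor chain IL1RAP thus stood above IL18 and IL1RN in TAM cells and below both in NT cells.

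**Figure D1:**
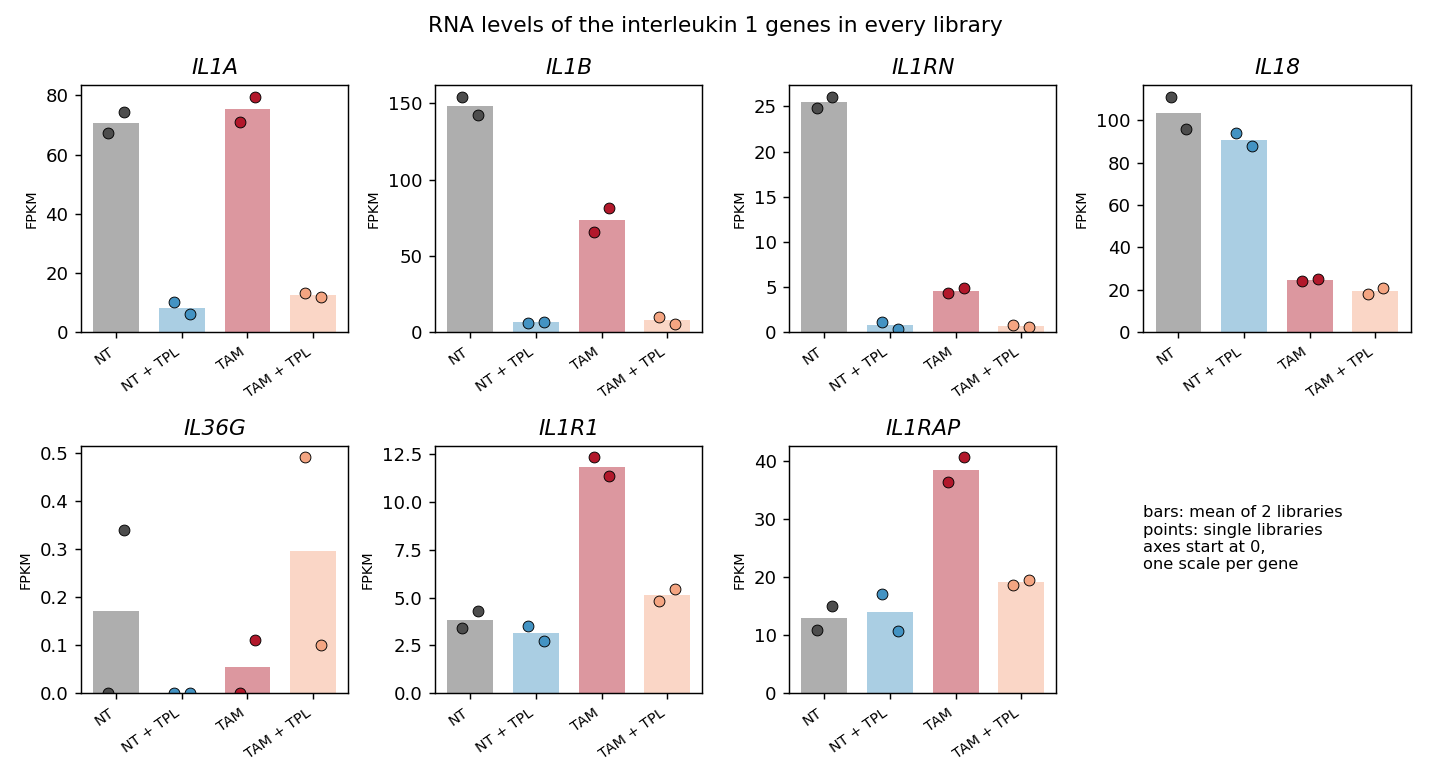
RNA level of each member in FPKM (vertical axis, from 0, with its own scale per gene) in the 4 groups; points are single libraries and bars the mean of 2. IL1A, IL1B and IL1RN lie far below their DMSO libraries with TPL in both cell states, IL18 is low in all 4 TAM libraries, and IL1R1 and IL1RAP are highest in the 2 TAM libraries with DMSO.

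IL1A, which encodes the cell-associated agonist IL-1α, fell with TPL in both cell states and did not separate them with DMSO. Its level was 67.3 and 74.3 FPKM in NT cells without and 10.3 and 6.32 with TPL, and 71.1 and 79.5 in TAM cells without and 13.1 and 12.1 with TPL. The DMSO and TPL libraries did not overlap, the NT and TAM libraries with DMSO did, and both TAM + TPL libraries lay above both NT + TPL libraries. IL1A fell with TPL in NT cells with a log2 fold change of -3.10 (SE 0.222, 95% interval -3.63 to -2.58, adjusted p = 0.000294 by edgeR) and in TAM cells with one of -2.63 (SE 0.216, interval -3.14 to -2.12, adjusted p = 0.000476). The remaining level was 11.7% ± 3.99 of the DMSO mean in NT cells and 16.7% ± 1.02 in TAM cells (SD, n = 2). Between TAM and NT cells with DMSO the log2 fold change was 0.11 (interval -0.37 to 0.58, adjusted p = 0.842 by edgeR), and with TPL 0.58 (interval 0.07 to 1.09, adjusted p = 0.178).

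The gene lies on the minus strand at chr2:113531502-113542070 (hg19), and RNAPII covered the whole of it without TPL. The listed peak was 12235 bases long in NT and 12434 in TAM, from 254 and 287 bases before the TSS to past the end of the gene, and only 0.205% and 0.09% of the peaks in those lists were as long. With TPL a peak of 171 bases remained in NT and of 324 bases in TAM cells, each around the TSS, which covered 0.8% and 2.1% of the gene. The 250 bases before the TSS (chr2:113542071-113542320, minus strand, GRCh37) are shown because both shortened peaks still reached into them; capitals mark an AP-1 motif (TGANTCA) 12 to 6 bases before the TSS and the letters TATAAA far upstream.
IL1A: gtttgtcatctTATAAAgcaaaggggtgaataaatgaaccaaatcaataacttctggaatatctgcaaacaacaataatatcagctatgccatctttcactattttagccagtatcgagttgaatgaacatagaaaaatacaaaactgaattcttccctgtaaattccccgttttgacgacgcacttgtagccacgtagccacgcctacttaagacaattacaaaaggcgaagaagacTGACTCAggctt

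IL1B, which encodes the secreted agonist IL-1β, was the most abundant member in NT cells and lost a larger share of its RNA there than any other agonist or receptor. Its level was 154 and 142 FPKM in NT cells without and 6.12 and 6.82 with TPL, and 65.7 and 81.1 in TAM cells without and 10.2 and 5.51 with TPL. The 2 TAM libraries lay below the 2 NT libraries with DMSO, whereas with TPL the cell states overlapped. IL1B fell with TPL in NT cells with a log2 fold change of -4.52 (SE 0.307, interval -5.25 to -3.79, adjusted p = 0.000259 by edgeR) and in TAM cells with one of -3.27 (SE 0.292, interval -3.97 to -2.58, adjusted p = 0.000593). Of the DMSO mean, 4.37% ± 0.334 remained in NT and 10.7% ± 4.53 in TAM cells (SD, n = 2). The change from NT to TAM with DMSO was -1.0 on the log2 scale (SE 0.258, interval -1.61 to -0.39), which missed both thresholds (adjusted p = 0.0736 by edgeR). The ratio of IL1B to IL1A in FPKM was 2.29 and 1.91 in NT and 0.925 and 1.02 in TAM.

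IL1B lies next to IL1A in the genome, on the same strand at chr2:113587328-113594393. Its RNAPII peak was 8553 bases long in NT, where it covered the whole gene, and 2844 bases in TAM, where it covered 38.6% of it. Neither list with TPL held a peak over its TSS or within 1000 bases of it. The TAM list carries another threshold in its peak names than the other 3, so a difference in peak length between NT and TAM cannot be told apart from that setting. The sequence before its TSS (chr2:113594357-113594606, minus strand), shown beside that of IL1A since the pair differs in what TPL left of the peak, holds 1 match to the STAT motif TTCNNNGAA, in capitals, 180 to 172 bases before the TSS.
IL1B: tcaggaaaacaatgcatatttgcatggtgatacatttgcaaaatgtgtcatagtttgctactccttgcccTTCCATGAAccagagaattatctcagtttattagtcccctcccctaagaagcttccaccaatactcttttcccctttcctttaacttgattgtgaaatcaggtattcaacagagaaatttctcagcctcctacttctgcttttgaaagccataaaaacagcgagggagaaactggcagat

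IL1RN, the antagonist, was low wherever the cells were transformed or treated. Its level was 24.8 and 26.1 FPKM in NT cells without and 1.16 and 0.370 with TPL, and 4.37 and 4.88 in TAM cells without and 0.820 and 0.540 with TPL. All 6 other libraries lay below both NT libraries, and the treated libraries of the 2 cell states overlapped. IL1RN fell with TPL in NT cells with a log2 fold change of -5.06 (SE 0.448, interval -6.12 to -4.0, adjusted p = 0.000524 by edgeR), the lowest of the 6 tested members. In TAM cells the log2 fold change was -2.81 (SE 0.438, interval -3.85 to -1.78), and between TAM and NT with DMSO it was -2.43 (SE 0.377, interval -3.32 to -1.54). Both passed the looser threshold, with adjusted p = 0.00410 and adjusted p = 0.012 by edgeR. The treated libraries held 16 and 5 counts in NT cells and 11 and 8 in TAM cells, so counting error is large in these folds.

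Per 100 FPKM of IL1A and IL1B together, IL1RN stood at 11.2 and 12 FPKM in the NT libraries and at 3.19 and 3.04 in the TAM libraries. With TPL the same ratio was 7.06 and 2.82 in NT and 3.51 and 3.08 in TAM cells, on the few counts given above. The balance of antagonist and agonist RNA was thus lower in both TAM libraries than in both NT libraries with DMSO, and this ratio was not tested.

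None of the 4 peak lists held a peak at any of the 13 annotated TSSs of IL1RN (chr2:113856892-113891593, plus strand), although its RNA was above that of IL1RAP in NT cells, where a peak was listed. A second entry for the same symbol had 11.7 estimated counts in NT replicate 2 and none elsewhere. The sequence before the main TSS (chr2:113884925-113885174, plus strand) is shown because among the sequences shown it is the only one with an NF-κB motif (GGGNNNNNCC, 97 to 88 bases before the TSS) together with TATAAA at 30 to 25 bases, both in capitals; the capitals begin with the overlapping reverse match to TATAAA.
IL1RN: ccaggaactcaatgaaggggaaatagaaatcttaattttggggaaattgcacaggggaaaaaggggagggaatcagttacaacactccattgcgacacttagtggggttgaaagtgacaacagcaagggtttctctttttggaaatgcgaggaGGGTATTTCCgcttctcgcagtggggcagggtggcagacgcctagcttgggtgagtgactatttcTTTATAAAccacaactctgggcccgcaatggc

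IL18, a cytokine that many epithelia hold as an inactive precursor, differed between the cell states, and its values with TPL missed both thresholds. Its level was 111 and 95.6 FPKM in NT cells without and 93.9 and 87.7 with TPL, and 24.4 and 25.4 in TAM cells without and 18.1 and 20.9 with TPL. Every TAM library lay below every NT library, with or without TPL. IL18 fell in TAM against NT cells with DMSO with a log2 fold change of -2.04 (SE 0.145, interval -2.38 to -1.69, adjusted p = 0.000566 by edgeR) and with TPL with one of -2.24 (SE 0.147, interval -2.59 to -1.89, adjusted p = 0.000343). With TPL its log2 fold change was -0.19 in NT cells (interval -0.52 to 0.13, adjusted p = 0.304 by edgeR) and -0.40 in TAM cells (interval -0.74 to -0.05, adjusted p = 0.0755). The intervals reach down to -0.74, and 87.9% ± 4.19 and 78.3% ± 7.98 of the DMSO mean remained in NT and TAM cells (SD, n = 2).

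The peak over the IL18 TSS was listed only without TPL, with 662 bases in NT and 380 in TAM. The gene lies at chr11:112013976-112034819 on the minus strand.

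The receptor chains IL1R1, which binds the ligand, and IL1RAP, which completes the signalling complex, were both highest in TAM cells with DMSO. IL1R1 stood at 3.41 and 4.28 FPKM in NT cells without and 3.53 and 2.75 with TPL, and 12.3 and 11.4 in TAM cells without and 4.85 and 5.43 with TPL. IL1RAP stood at 10.9 and 15.04 FPKM in NT cells without and 17.1 and 10.8 with TPL, and 36.3 and 40.6 in TAM cells without and 18.6 and 19.6 with TPL. For both, the TAM libraries with DMSO were above the other 6, and the TAM + TPL libraries were next, above all NT and NT + TPL libraries.

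In TAM against NT cells with DMSO the log2 fold change was 1.63 for IL1R1 (SE 0.182, interval 1.2 to 2.06, adjusted p = 0.00309 by edgeR) and 1.58 for IL1RAP (SE 0.232, interval 1.03 to 2.13, adjusted p = 0.00972), both past the looser threshold. With TPL in TAM cells it was -1.27 for IL1R1 (SE 0.179, interval -1.69 to -0.84, adjusted p = 0.00283 by edgeR) and -1.05 for IL1RAP (SE 0.228, interval -1.59 to -0.51, adjusted p = 0.0138). In NT cells neither passed, with -0.33 for IL1R1 (interval -0.76 to 0.11, adjusted p = 0.196) and 0.11 for IL1RAP (interval -0.43 to 0.66, adjusted p = 0.722). The IL1RAP to IL1R1 ratio in FPKM stayed between 2.94 and 4.86 over the 8 libraries.

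Both chains had short peaks at their TSSs. For IL1R1 (main TSS chr2:102759206, plus strand) peaks of 245 bases in NT, 551 in TAM and 195 in TAM + TPL were listed, and none in NT + TPL. For IL1RAP (chr3:190231840-190377539, plus strand) the peaks over the TSS had 558 bases in NT, 194 in NT + TPL and 242 in TAM, and none was listed in TAM + TPL. Exons of IL1R1 overlap the antisense RNA gene IL1R1-AS1, and without strand in the counting the reads of the pair cannot be told apart.

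The sequence of the IL1R1 promoter (chr2:102758956-102759205, plus strand) is shown for its base composition, with 3 NF-κB matches in capitals.
IL1R1: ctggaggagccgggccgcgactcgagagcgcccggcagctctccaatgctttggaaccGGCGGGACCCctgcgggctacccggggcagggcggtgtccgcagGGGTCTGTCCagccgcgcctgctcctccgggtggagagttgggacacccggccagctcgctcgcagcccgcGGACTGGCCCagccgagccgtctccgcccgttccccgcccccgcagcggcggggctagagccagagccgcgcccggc

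In these 250 bases GC made up 76.8% for IL1R1 and 74.8% for IL1RAP, against 37.6% for IL1A, 40.0% for IL1B, and 48.4% for IL1RN and IL36G. Over 19811 promoters of protein-coding genes the median was 63.2% with quartiles of 54.0% and 71.2%, so IL1A, IL1B, IL1RN and IL36G lay under the lower quartile and both receptor chains above the upper one. The motifs were searched on both strands and were found in 65.5% (NF-κB), 4.7% (AP-1), 5.69% (STAT) and 9.28% (TATAAA) of these promoters, the first of which makes the matches in IL1RN, IL1R1 and IL1RAP a common finding. A match says only that these letters are present.

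With TPL in NT cells 3 of the 6 tested members fell (IL1A, IL1B and IL1RN), where 2.71% of all genes tested fell and 1.22% rose. At the looser threshold the same 3 members passed downward, where 19.8% of all genes did. In TAM cells 2 of 6 fell (IL1A and IL1B), where 2.04% of all genes fell and 0.844% rose, and 5 of 6 passed the looser threshold downward, where 18.6% of all genes did. The median log2 fold change of the 6 members was -1.72 in NT and -1.95 in TAM cells, against 0.09 and 0.05 over all genes tested. Only 1.39% of the tested genes had a lower fold change than IL1RN in NT cells, 1.58% than IL1B and 2.68% than IL1A.

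These calls rest on the stringent threshold and on few replicates. A fit without 1 library leaves 1 group without a replicate. In each such fit fewer of all genes were called lower with TPL in NT cells too, and the calls over all genes also changed in the other comparisons. A lost call is therefore not particular to the members. Leaving out any 1 library except NT + TPL replicate 1 took the NT count of 3 to 0 (without that one it was 2), and leaving out either NT, TAM or TAM + TPL library took the TAM count of 2 to 0. The single call of TAM against NT with DMSO went to 0 without any 1 of the NT, TAM or TAM + TPL libraries, and that with TPL went to 0 without any 1 of the 8 libraries. Past the looser threshold in all 8 such fits were IL1A, IL1B and IL1RN with TPL in NT cells (3 of 3), IL1A, IL1B, IL1RN and IL1R1 in TAM cells (4 of 5), IL18 and IL1R1 in TAM against NT with DMSO (2 of 4) and IL18 with TPL (1 of 1).

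**Figure D2:**
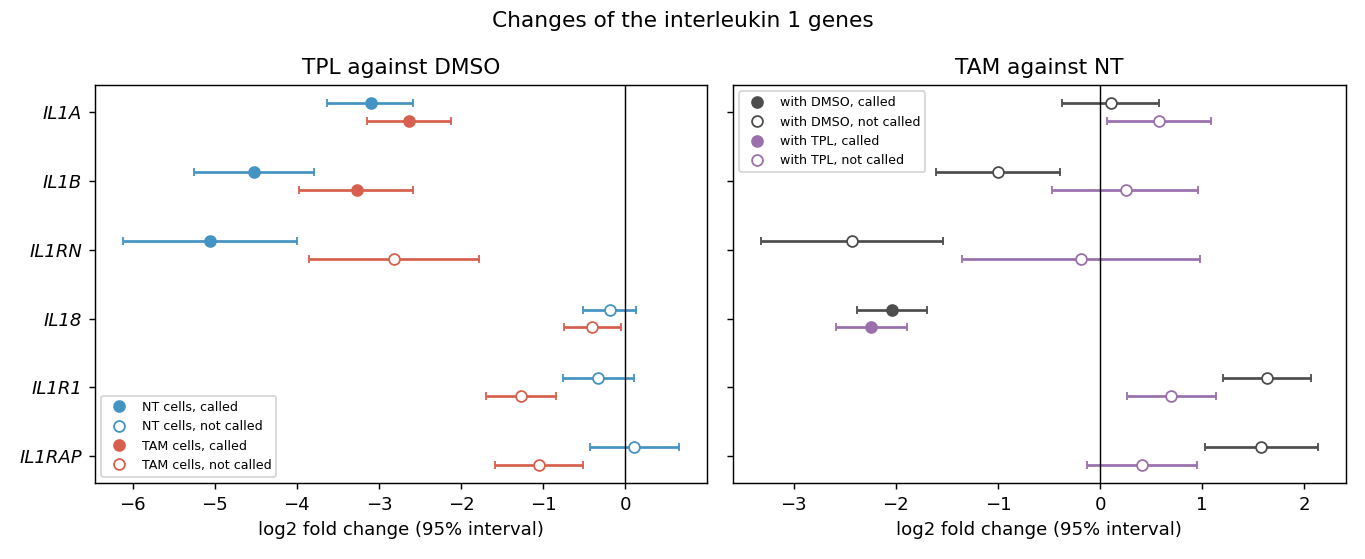
Log2 fold change (horizontal axis) of the 6 tested members with its 95% interval, for TPL against DMSO (left) and TAM against NT (right); filled points are calls and open points are not. The intervals of IL1A, IL1B and IL1RN with TPL lie below 0 in both cell states, those of IL18 in both TAM comparisons lie below 0, and those of IL1R1 and IL1RAP in TAM against NT with DMSO lie above it.

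Between TAM and NT cells with DMSO 1 of the 6 fell (IL18), where 0.277% of all genes fell and 0.378% rose. At the looser threshold 2 passed downward (IL18 and IL1RN, where 3.39% of all genes did) and 2 upward (IL1R1 and IL1RAP, where 3.46% did). With TPL 1 of 6 fell (IL18), where 0.236% of all genes fell and 0.36% rose, and it was also the 1 member past the looser threshold, where 4.21% of all genes passed downward and 2.83% upward. The members' median log2 fold changes were -0.44 with DMSO and 0.33 with TPL, beside -0.03 and -0.02 over all genes.

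The difference between the TPL effects in TAM and NT cells was tested as an interaction, in which edgeR called 0 of the 6 members (0% of all genes were called) and 0 passed the looser threshold, where 0.0885% of all genes passed upward and 0.0767% downward. Unadjusted, 4 of the 6 members had p at most 0.05 by edgeR, as did 1799 of all 16948 genes. For IL1RN the difference was 2.24 on the log2 scale (interval 0.78 to 3.71, adjusted p = 0.285 by edgeR) and for IL1B 1.25 (interval 0.31 to 2.18, adjusted p = 0.349), a smaller loss in TAM cells. For IL1R1 it was -0.94 (interval -1.54 to -0.33, adjusted p = 0.285 by edgeR) and for IL1RAP -1.17 (interval -1.93 to -0.40, adjusted p = 0.285), a larger loss in TAM cells. DESeq2's Wald test put 3 of these past the looser threshold, with adjusted p = 0.0157 for IL1RN, 0.022 for IL1B and 0.0138 for IL1RAP. Limma on log2(FPKM + 1) put 0 past it. The share of all genes past it by DESeq2 is not given here, and the shares above are those of edgeR. DESeq2 called more genes in general, such as 1586 lower with TPL in NT cells where edgeR called 460.

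Peaks at the members' TSSs became fewer with TPL. The main TSS of 5 of the 7 members lay in a listed peak in NT (47.9% of protein-coding genes did) and of 2 in NT + TPL (38.3%), and the counts were 5 in TAM (42.2%) and 2 in TAM + TPL (37.5%). Of the 5 with a peak in NT, IL1B, IL18 and IL1R1 lost it with TPL, where 22.9% of the genes with a peak did. Of the 5 in TAM, IL1B, IL18 and IL1RAP lost it, where 19.1% did. As the TAM list carries another threshold in its peak names than the TAM + TPL list, the losses and lengths in TAM cells cannot be told apart from that setting. Where a peak was listed with and without TPL it was shorter with TPL, for IL1A and IL1RAP in NT (62.9% of such genes had a shorter peak) and for IL1A and IL1R1 in TAM (44.7%). There is 1 list per condition and it holds no height or score, so these differences have no replicate check. The loss of a peak did not go member by member with the loss of RNA: IL18 lost its peak and was not called with TPL, and IL1A kept a short peak while its RNA fell.

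**Figure D3:**
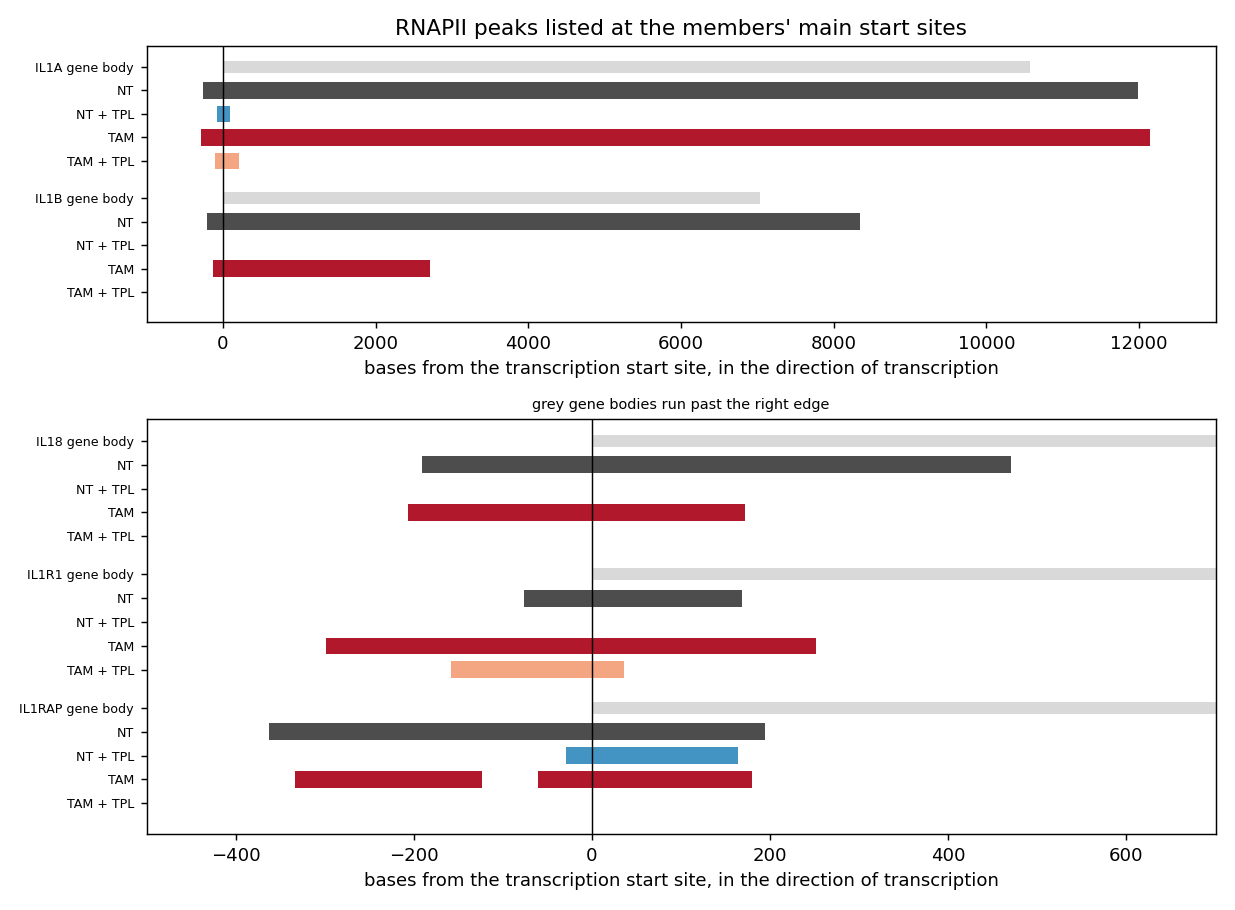
Listed RNAPII peaks (coloured bars, 1 row per condition) at the main TSS of the 5 members that had any, in bases from the TSS in the direction of transcription, with the gene body in grey; the upper panel spans the whole of IL1A and IL1B and the lower one only the surroundings of the TSS. The peaks over IL1A of 12235 and 12434 bases shrink to 171 and 324 bases with TPL, and the rows of IL1B and IL18 with TPL are empty.

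The remaining genes of the pathway were taken from 4 lists. Among 15 further family members and receptors, 7 passed the filter, and the one that stood out was IL1RL1, the receptor of IL-33. It measured 7.28 and 7.39 FPKM in NT cells without and 10.1 and 7.22 with TPL, and 176 and 176 in TAM cells without and 399 and 398 with TPL. It rose in TAM against NT cells by a log2 fold change of 4.60 without TPL (SE 0.178, adjusted p = 5.79e-05 by edgeR) and of 5.51 with TPL (SE 0.184, adjusted p = 3.61e-05), and with TPL in TAM cells it passed the looser threshold upward at 1.13 (SE 0.152, adjusted p = 0.00241). This receptor was therefore higher with TPL in the cells in which IL1R1 and IL1RAP were lower, and its FPKM were 14.2 and 15.4 times those of IL1R1 in TAM and 82.2 and 73.3 times in TAM + TPL.

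The decoy receptor IL1R2 stood at 10.51 and 8.82 FPKM in NT and 38.5 and 42.8 in TAM, a log2 fold change of 2.13 that passed the looser threshold (SE 0.227, adjusted p = 0.00267 by edgeR), as did that with TPL of 1.34 (adjusted p = 0.0152). IL33, the ligand of IL1RL1, was at 0.260 and 0.05 FPKM in NT cells without and 0.220 and 0.170 with TPL, and 2.90 and 1.85 in TAM cells without and 0.370 and 0 with TPL, and passed the looser threshold downward with TPL in TAM cells (log2 fold change of -3.91 on 62.9 and 36.3 counts against 6.43 and 0, adjusted p = 0.0483 by edgeR). IL18RAP, a chain of the IL-18 receptor, passed it upward with TPL in NT cells, from 2 and 1 counts to 8 and 18 (adjusted p = 0.0446 by edgeR), and in TAM cells, from 1 and 0 to 40 and 20 (adjusted p = 0.00989). IL18R1, the other chain, and the inhibitory receptor SIGIRR passed it upward in TAM against NT cells with TPL (2.55 and 1.16, adjusted p = 0.0365 and adjusted p = 0.0499 by edgeR). In this list edgeR and DESeq2 each called 0 genes with TPL in either cell state. By edgeR 2 of the 7 in NT and 4 in TAM cells had an unadjusted p of at most 0.05. Of all 16948 genes tested, 8108 and 7640 did.

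Of 18 genes known to be induced by IL-1, 17 were tested, and most were lower with TPL. In all, 8 fell in NT cells and 7 in TAM cells, where 2.71% and 2.04% of all genes did. At the looser threshold 12 passed downward in each, where 19.8% and 18.6% of all genes did, and the median log2 fold changes were -2.45 and -2.22 against 0.09 and 0.05 over all genes. The colony-stimulating factor CSF3 stood at 31.6 and 32.3 FPKM in NT cells without and 1.55 and 0.750 with TPL, and at 255 and 240 in TAM cells without and 9.93 and 6.72 with TPL. NFKBIA, the inhibitor of NF-κB that its own target induces, stood at 301 and 261 FPKM in NT cells without and 49.0 and 41.5 with TPL, and at 429 and 423 in TAM cells without and 34.8 and 42.9 with TPL. The chemokines CXCL1, CXCL2, CXCL3 and CXCL8 fell in both, with log2 fold changes of -5.69, -4.87, -4.74 and -3.84 in NT and of -6.27, -6.30, -5.66 and -3.87 in TAM cells, and the deubiquitinase TNFAIP3 fell too, with -2.45 and -2.69.

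NFKBIZ, a nuclear regulator of NF-κB targets, fell in NT cells (-2.88) and passed the looser threshold in TAM cells (-2.22). The adhesion molecule ICAM1 (-1.28 in NT and -1.32 in TAM cells), the RNase ZC3H12A (-0.72 and -1.60) and BIRC3 (-0.84 and -1.35) passed it in both, LIF in NT cells (-3.48) and IL6 in TAM cells (29 and 22 counts against 0 and 1, adjusted p = 0.0251 by edgeR). With DMSO, IL6 itself was at 0 and 0.1 FPKM in NT and at 2.93 and 2.23 in TAM cells. The mitochondrial dismutase SOD2, a standard IL-1 target, went the other way in NT cells, from 128 and 120 FPKM without to 271 and 493 with TPL, or 1.49 on the log2 scale (SE 0.250, adjusted p = 0.00484 by edgeR), and was the 1 gene of the list past the looser threshold upward there, where 17.2% of all genes passed.

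In TAM against NT cells with DMSO 2 of these 17 targets rose, where 0.378% of all genes did, CXCL3 (2.37, SE 0.183, adjusted p = 0.000771 by edgeR) and CSF3 (2.97, SE 0.241, adjusted p = 0.000913), and CXCL2, CXCL8 and ZC3H12A passed the looser threshold upward (1.19, 1.05 and 0.96), so that 5 passed it in all, where 3.46% of all genes did. With TPL edgeR called 0 and DESeq2 2 of them in that comparison (6 had an unadjusted p of at most 0.05 by edgeR, as did 3608 of all 16948 genes). There CXCL3, CXCL8 and CSF3 passed the looser threshold upward (1.44, 1.03 and 2.81), where 2.83% of all genes did.

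Of 17 adaptors, kinases and inhibitors, 16 were tested. MYD88, the adaptor of the receptor, measured 25.5 and 28.9 FPKM in NT cells without and 8.70 and 6.71 with TPL, and 70.7 and 76.8 in TAM cells without and 14.6 and 16.9 with TPL. It fell with TPL in both cell states (log2 fold changes -1.79, SE 0.171, adjusted p = 0.000652, and -2.26, SE 0.168, adjusted p = 0.000387 by edgeR). It was the 1 gene of the list to do so, where 2.71% of all genes fell in NT and 2.04% in TAM cells. It passed the looser threshold upward in both comparisons of TAM and NT cells (1.44 with DMSO, 0.97 with TPL), where 3.46% and 2.83% of all genes did.

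Further along the pathway TAB1, an activator of the kinase TAK1, the IκB kinase CHUK and the ligase TRAF6 passed the looser threshold downward in both cell states (-1.80 and -1.50, -1.17 and -1.04, and -0.80 and -0.61), TAB2 in NT cells (-1.04) and the inhibitor TOLLIP in TAM cells (-0.68). With MYD88, 5 of the 16 tested genes passed it downward in each cell state, where 19.8% of all genes did in NT and 18.6% in TAM cells. The kinase IRAK4 passed it upward in both (0.78 and 0.90) and IRAK2 in TAM cells (1.36). Over all genes 17.2% passed upward in NT and 14.3% in TAM cells. TOLLIP also passed it upward in TAM against NT cells with DMSO (0.88). The list's medians with TPL were -0.34 and -0.37.

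Among the genes that process and release the ligands few passed a threshold. Of 16, 12 were tested, and edgeR called 0 in any of the 4 comparisons, where DESeq2 called 1, in TAM against NT with DMSO. In these comparisons 2 to 4 had an unadjusted p of at most 0.05 by edgeR, beside 3380 to 8108 of all 16948 genes. With TPL 1 of the 12 passed the looser threshold upward and 1 downward in each cell state, where 17.2% and 19.8% of all genes did in NT and 14.3% and 18.6% in TAM cells. In NT cells these were the pore-forming GSDMD (0.98) and the protease CAPN2 (-0.54), and in TAM cells the protease CTSS (0.93) and the IL-1β-cleaving CASP1 (-0.61). CASP1 stood at 24.3 and 20 FPKM in NT cells without and 18.2 and 18.6 with TPL, and 25.1 and 25.4 in TAM cells without and 15.7 and 17.0 with TPL. The inflammatory caspase CASP4 passed the looser threshold upward in both comparisons of TAM and NT cells (1.31 with DMSO, 0.70 with TPL), as did CAPN2 with TPL (0.94), while CAPN1 passed it downward there (-0.74).

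**Figure D4:**
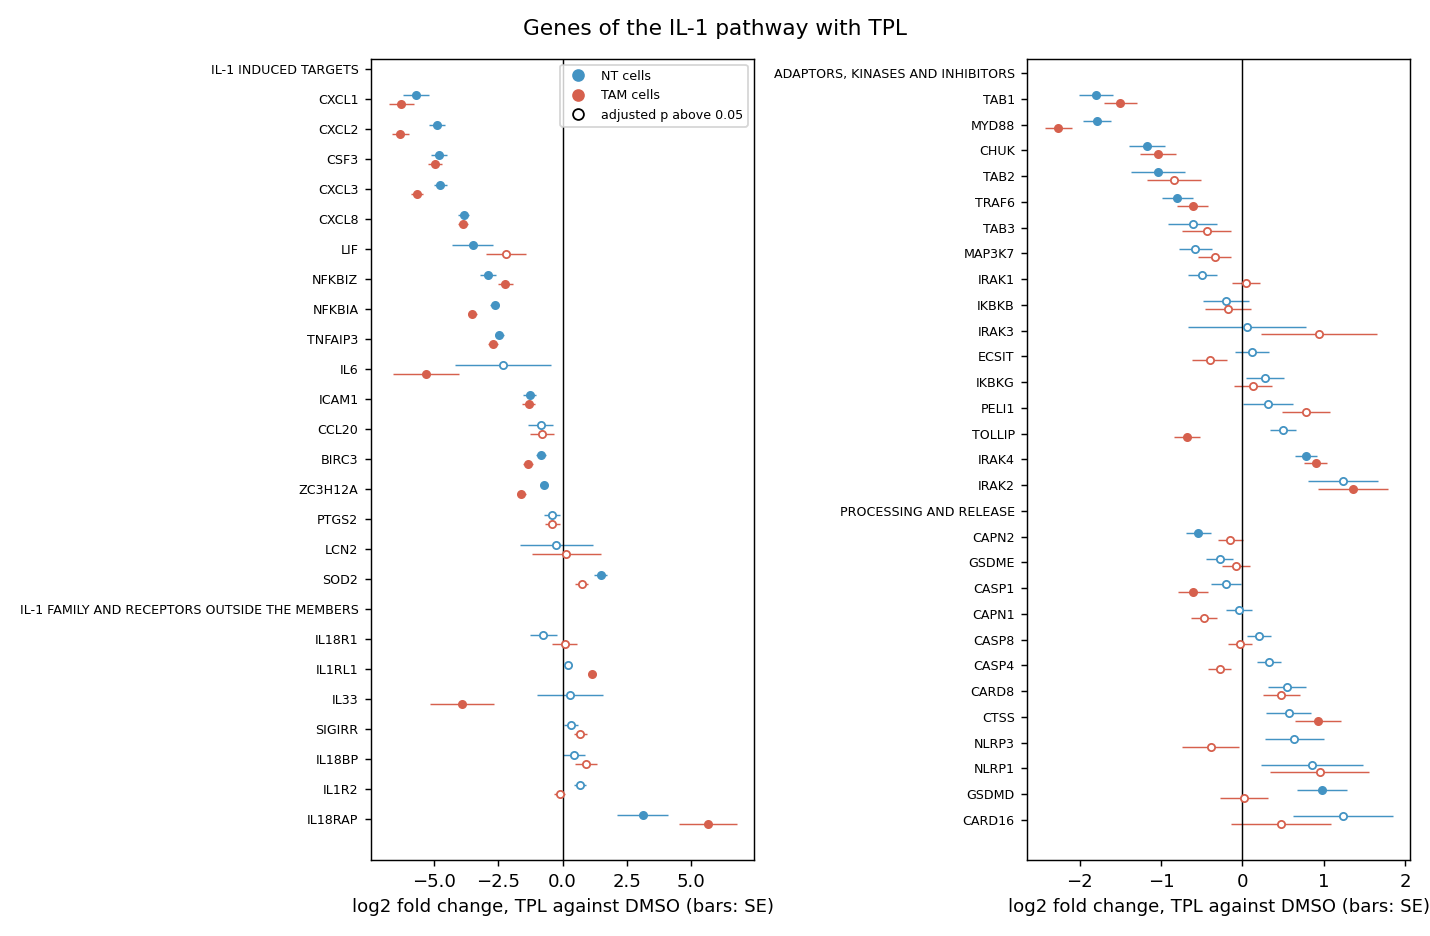
Log2 fold change with TPL against DMSO (horizontal axis, bars are SE) of the tested genes of the 4 pathway lists in NT cells (blue) and TAM cells (red); open points have an adjusted p above 0.05. Most IL-1 induced targets lie far left of 0 in both cell states with SOD2 on the right, MYD88 and TAB1 lead the adaptors on the left, and the processing genes lie closer to 0; IL6 and IL18RAP had a group with at most 3 counts per library, so their positions depend on how the fit treats low counts.

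For each tested member the genes most like it in log2(FPKM + 1) over the 8 libraries were taken from 14135 genes with a mean of at least 1 FPKM. With so few libraries in 4 groups, a high correlation says only that the group means have the same order and spacing. IL1A was most like BAG2 (r = 0.999), which stood at 33.7 and 34.2 FPKM in NT cells without and 4.65 and 3.0 with TPL, and at 33.7 and 39.4 in TAM cells without and 5.99 and 4.97 with TPL, and like PHF23 (r = 0.998). IL1B was most like CCDC86 (r = 0.998) and TRIM27 (r = 0.996), and IL1RN like the scaffold AJUBA (r = 0.993) and the kinase PIM1 (r = 0.992). IL18 was most like MTURN (r = 0.996) and DPYSL2 (r = 0.992). IL1R1 was most like FAM83A (r = 0.992), which stood at 28.5 and 36.8 FPKM in NT cells without and 24.4 and 13.4 with TPL, and 217 and 195 in TAM cells without and 48.6 and 56.7 with TPL, and like the demethylase KDM7A (r = 0.991), and IL1RAP like ARRDC3 (r = 0.979) and FAM76B (r = 0.976). None of these 12 is a member of the pathway lists.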

How the data were processed

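RNA-Seq was made from 8 cultures in 4 groups (2 biological replicates each), and RNAPII ChIP-Seq gave 1 peak list per condition. The deposited RNA files hold expected counts, which the authors estimated per gene with RSEM from poly-A reads aligned to reference genes with Bowtie2, without normalization. FPKM, also made by the authors with RSEM, scale these by transcript length and mapped reads. For the ChIP reads the study's methods name SOAP2 and hg19, with peaks called over input by MACS, while the submitters' processing notes list BWA and MACS 1.4.2. The lists hold peaks over TSSs as positions only. Names in each list point to a single replicate, and whether replicates were pooled is not given in the sources used here.

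Genes that a file did not list were taken as 0. Gene IDs or RefSeq accessions gave a symbol for 99.5% of 23604 entries. After rounding, the expected counts went into the quasi-likelihood test of edgeR 4.0.16 (R 4.3.3) with TMM scaling and its filter on low counts, in a single fit of 4 groups that was tested on simulated data first, with Benjamini-Hochberg adjustment over 16948 genes. The thresholds of a call (0.001 and 1.2) are those of the study's methods, and 0.05 is the looser threshold. Intervals are 95% intervals from the standard error and the fit's degrees of freedom, and cover the spread of these replicates only. Members and lists were chosen with earlier results of these data known. The text names all members, the list genes with an adjusted p of at most 0.05, and for each tested member the 2 genes most like it. TSSs are those of the Ensembl canonical transcripts in GENCODE release 44 placed on GRCh37, which is the build of the peaks, and sequences come from that genome. For 4 of 6 members the letters are the same as in RefSeq's promoter table, and the promoter of IL18 is not reported here.

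The alternatives were DESeq2 1.42.0, its size factors in edgeR, library size only, upper quartile, GAPDH as the reference, no filter, at least 10 counts in every library, other thresholds, a replicate block, a fit of only the groups compared, limma 3.58.1 on log2(FPKM + 1) and log2(FPKM + 0.1), entries summed by symbol, and each library left out. For peaks they were any annotated TSS, a peak within 1000 bases, and a TSS at least 50 bases inside the peak. Libraries with the same replicate number did not deviate together, and the main fit held no pairing. A pairing across numbers was tried only for NT + TPL. ChIP signal was not used here.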

Additional observations from a re-analysis of the deposited data

How the results depend on the processing

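The stringent calls of the members changed with the processing more often than the direction of their fold changes. Over all alternatives 555 values of a member in a comparison kept their direction and their side of the call, 73 kept the direction and lost the call, 17 gained it, and 10 changed sign, all of them values not called in the first place. Most of the 555 were also not called in the first place and had no call to lose. The 73 were a large part of the values that could lose one. Alternatives that changed only a threshold used the same fit, so direction could not change in them. The number of members called with TPL in NT cells was 3, and 0 with the replicate block, with only the groups compared and with limma on log2(FPKM + 0.1), and 0 to 2 with a library left out. In TAM cells it was 2, and 4 with an adjusted p of 0.05, with DESeq2 and with entries summed by symbol, 1 with only the groups compared and with limma on log2(FPKM + 1), 0 with the replicate block and with limma on log2(FPKM + 0.1), and 0 to 2 with a library left out. For TAM against NT cells with DMSO it was 1, and 4 with an adjusted p of 0.05, with DESeq2 and with entries summed by symbol, 3 with at least 10 counts in every library, 0 with the replicate block, with only the groups compared and with limma on either scale, and 0 to 1 with a library left out. For TAM against NT cells with TPL it was 1, and 0 with the replicate block, with only the groups compared and with limma on log2(FPKM + 0.1), and 0 to 0 with a library left out. Calls over all genes changed too. Apart from fits with a library left out, those lower with TPL ranged from 0 to 1918 in NT cells (460 in the main fit). In TAM cells they ranged from 0 to 1717 (345 in the main fit). The highest of both were with an adjusted p of 0.05. In TAM against NT cells the lower calls ranged from 7 to 398 with DMSO and from 0 to 410 with TPL. A changed count is therefore not particular to the members. The cause of these changes was not tested, and a block or a lost library also leaves fewer degrees of freedom.

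Libraries with the same replicate number did not deviate together (correlations of replicate differences between groups from -0.135 to 0.0501). Pairing across numbers was tried only for NT + TPL, so other pairings of the libraries were not tested. Under the replicate block the 460 genes called lower with TPL in NT cells and the 345 in TAM cells became 0, while 3 and 5 members stayed past the looser threshold. With the numbers of NT + TPL crossed, chosen after seeing the data, 0 members and 64 genes were called lower in NT cells.

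Over all genes tested, GAPDH as the reference moved the median fold change (log2) to -0.26 with TPL in NT cells and to -0.50 for TAM against NT with DMSO, and upper quartile scaling moved it to 0.31 and 0.29 with TPL. Among small values the sign changed for IL18 with TPL in NT cells (0.026 by upper quartile), IL1RAP with TPL in NT cells (-0.28 by GAPDH, and -0.23 to 0.41 with a library left out), IL1A in TAM against NT with DMSO (-0.37 by GAPDH), IL1B in TAM against NT with TPL (-0.0028 by GAPDH, and -0.24 to 0.67 with a library left out), IL1RN there (-0.74 to 0.84 with a library left out) and IL18 in the difference of the TPL effects (0.032 by GAPDH). With a TSS at least 50 bases inside the peak, 1 member in place of 2 was in a peak in NT + TPL and in TAM + TPL, since the peaks of IL1RAP and IL1R1 begin or end close to the TSS.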
